A study of Arabidopsis thaliana with 12 samples.

Results

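The 10 genes described here make up the iron uptake system of the Arabidopsis thaliana root and its regulators: the transporters IRT1 (AT4G19690) and IRT2 (AT4G19680), the reductase FRO2 (AT1G01580), and the transcription factors FIT (AT2G28160), bHLH38 (AT3G56970), bHLH39 (AT3G56980), bHLH100 (AT2G41240), bHLH101 (AT5G04150), MYB10 (AT3G12820) and MYB72 (AT1G56160). They were found as all array probes that name these loci, 10 of the 25383 loci with a probe. The set was chosen from measured values. These were taken to be the rises of IRT1 and FRO2 in the wild type after 48 h of cold, so that comparison is described below without a test. Its 0 h arrays also enter tests below, such as the wild-type change at 3 h, so those tests are not independent of the choice. Whether other values also entered the choice is not known.

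Most iron in soil is ferric and poorly soluble. Arabidopsis roots release protons, reduce ferric iron at the root surface with FRO2 and take up the ferrous product through IRT1, the main high-affinity iron transporter. When iron runs short, the bHLH protein FIT, paired with one of the subgroup Ib bHLH proteins (bHLH38, bHLH39, bHLH100, bHLH101), switches on IRT1 and FRO2 in the root epidermis. The Ib genes are themselves induced by iron shortage in roots and leaves, and MYB10 and MYB72 act with FIT in the same response.

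Seedlings of the Col wild type and of 35S::RDM4 plants in the Col background, which express RDM4 from the viral 35S promoter active in most tissues, grew for 2 weeks on MS plates. They were sampled at room temperature (0 h) and after 3 h and 48 h at 4 °C, so both genotypes passed through the same cold. No arrays were made of plants kept at room temperature for 3 h or 48 h. In every change from 0 h the effect of cold therefore cannot be told apart from that of elapsed time, such as time of day or age. Each of the 6 groups had 2 biological replicates, each from at least 30 pooled seedlings, giving 12 one-colour arrays. The arrays lay on 5 slides, and at 0 h and 3 h no slide held arrays of both genotypes. At these times the genotype effect cannot be told apart from that of the slide. In 35S::RDM4 plants no slide held both 0 h and 48 h arrays, and both 48 h arrays were scanned on the second of 2 days. Their change from 0 h to 48 h therefore cannot be told apart from a slide effect either. The growth protocol speaks of overexpression lines and the sample labels do not say which line was used, so the genotype effect cannot be told apart from that of a particular line. Signals are given as a percentage of the 75th percentile of all probes on the same array, and differences are on the log2 scale.

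RDM4, an RNA polymerase-associated factor, read 106.8 to 149.5% in the wild type and 4344 to 6859% in 35S::RDM4 plants, which are the levels that the genotype labels describe. The arrays had a 75th percentile signal of 2700 to 5646 and 73.1 to 76.5% of probes well above background, and replicates correlated at 0.996 to 0.997 over 20806 genes. The RNA is labelled leaf, yet of 20 root markers (root hair, endodermis, suberin, root tip and root transporter genes) all were well above background on every array at 0 h and 3 h, and 19 on every array at 48 h, where CASP5 was not. Their summed signal was 2784 to 3113% at 0 h, 3216 to 3357% at 3 h and 1749 to 1822% at 48 h, with the genotypes close to each other at 48 h. The 8 leaf markers summed to 44580 to 75490%. In such bulk RNA, more cells of a type and more RNA per cell cannot be told apart.

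IRT1 and FRO2 were higher at 3 h of cold than at 0 h, and higher again at 48 h, on every array of both genotypes. IRT1 read 7.99 and 7.94% at 0 h, 28.5 and 28.7% at 3 h and 175 and 165% at 48 h in the wild type. In 35S::RDM4 plants IRT1 read 8.66 and 7.89%, then 43.7 and 42.6%, then 264 and 264%. The genotypes overlapped at 0 h and were apart at 3 h and 48 h, with every 35S::RDM4 array the higher. The limma test over all 20806 genes, with Benjamini-Hochberg adjustment, put the IRT1 rise in 35S::RDM4 plants at 2.38 ± 0.05 (SE, n = 2 per group) on the log2 scale at 3 h (adjusted p = 3.61e-09) and at 4.999 ± 0.048 at 48 h (adjusted p = 1.29e-10), which is 5.22-fold and 32.0-fold. In the wild type it rose by 1.84 ± 0.05 at 3 h (limma adjusted p = 1.27e-08), and the 48 h level was 21.3-fold the 0 h level. The wild-type 3 h test, here and for FRO2, uses the 0 h arrays of the comparison taken to be known.

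FRO2, the ferric chelate reductase, read 9.69 and 10.5%, 37.5 and 37.6%, and 122 and 119% at 0, 3 and 48 h in the wild type. The 35S::RDM4 arrays gave 10.5 and 9.43%, 60.7 and 65.7%, and 189 and 228%. As for IRT1, the 0 h values of the genotypes overlapped and the cold values did not. In 35S::RDM4 plants FRO2 rose by 2.66 ± 0.09 (SE, n = 2 per group) at 3 h (limma adjusted p = 6.07e-08) and by 4.38 ± 0.09 at 48 h (limma adjusted p = 2.62e-09), against 1.90 ± 0.09 at 3 h in the wild type (limma adjusted p = 4.33e-07), where the 48 h level was 11.97-fold the 0 h level.

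IRT2, a close relative of IRT1 expressed in the root epidermis and adjacent to IRT1 in the reference gene order, had a different course. Its wild-type arrays read 23.2 and 21.3% at 0 h, 36.3 and 34.7% at 3 h and 25.54 and 25.04% at 48 h, a peak at 3 h. The 35S::RDM4 arrays read 17.9 and 19.3%, 35.9 and 32.2%, and 32.9 and 32.3%, so in those plants the 48 h level lay within the range at 3 h. At 3 h IRT2 rose by 0.67 ± 0.07 (SE, n = 2 per group) in the wild type (limma adjusted p = 2.86e-05) and by 0.87 ± 0.07 in 35S::RDM4 plants (limma adjusted p = 5.89e-06). At 48 h it was 0.81 ± 0.07 above 0 h in 35S::RDM4 plants (limma adjusted p = 5.26e-06) and 1.14-fold the 0 h level in the wild type.

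**Figure D1:**
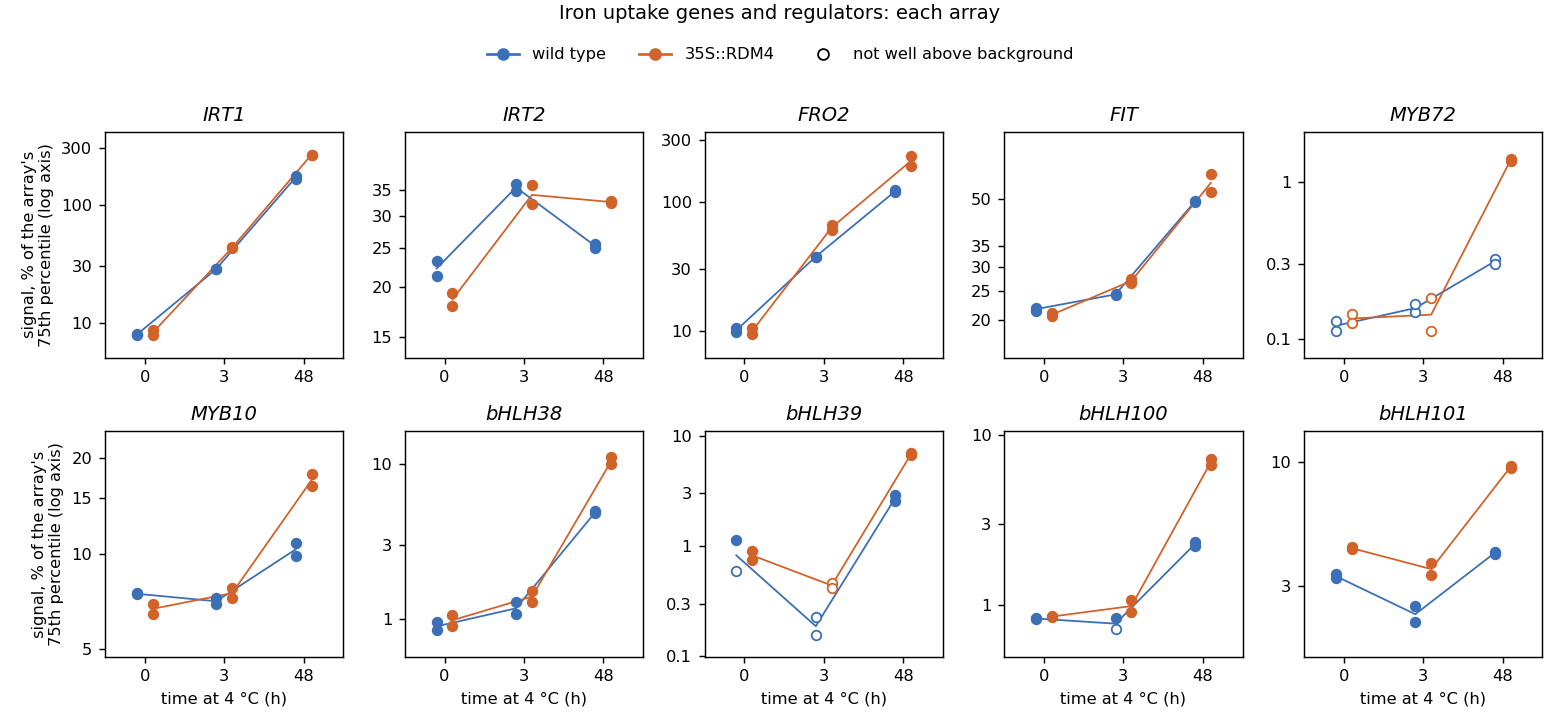
Signal of each gene on each of the 12 arrays, as a percentage of the array's 75th percentile on a log axis that differs between panels, against hours at 4 °C. Points are arrays (2 per group), lines join group means of log2 values, and open points were not well above background. At 48 h the 35S::RDM4 arrays lie above the wild-type arrays in all 10 panels. The share of all genes that lie apart in this way was not counted. At 0 h the genotypes overlap for IRT1, FRO2, MYB72, bHLH38 and bHLH39 and are apart in the other panels.

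FIT, the central regulator of the uptake genes, was slightly higher at 3 h than at 0 h and higher again at 48 h. It read 21.5 and 22.0% at 0 h, 24.2 and 24.4% at 3 h and 49.0 and 49.2% at 48 h in the wild type. In 35S::RDM4 plants it read 20.7 and 21.1%, 26.5 and 27.3%, and 52.8 and 60.5%. The replicate arrays of 35S::RDM4 plants at 48 h were further apart than in any other group for this gene, and both lay above the wild type. FIT rose by 0.16 ± 0.06 (SE, n = 2 per group) at 3 h in the wild type (limma adjusted p = 0.0361), a call lost in 4 of the other analyses and when single arrays were left out. It rose by 0.37 ± 0.06 in 35S::RDM4 plants at 3 h (limma adjusted p = 5.22e-04) and by 1.44 ± 0.06 at 48 h (limma adjusted p = 7.29e-08).

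The 4 subgroup Ib bHLH genes, FIT's partners, differed from one another at 3 h and were all higher at 48 h. bHLH38 read 0.951 and 0.844%, 1.28 and 1.07%, and 4.96 and 4.83% in the wild type, and 0.907 and 1.06%, 1.51 and 1.29%, and 9.92 and 10.99% in 35S::RDM4 plants. bHLH39, next to bHLH38 in the gene order, read 1.14 and 0.593% at 0 h, 0.225 and 0.156% at 3 h and 2.89 and 2.54% at 48 h in the wild type. Its 35S::RDM4 arrays read 0.906 and 0.743%, 0.459 and 0.418%, and 6.97 and 6.66%. The neighbours had opposite signs at 3 h: bHLH38 rose by 0.39 ± 0.12 (SE, n = 2 per group) in the wild type and 0.51 ± 0.12 in 35S::RDM4 plants (limma adjusted p = 0.0202 and 0.00538), while bHLH39 fell below the level that counts as well above background on all 4 arrays. Whether the bHLH38 and bHLH39 probes also bind each other's transcripts was not tested.

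A gene not well above background in a group has only a bound there, set by the lowest signal of a probe well above background on each array (0.49 to 0.87% over the arrays). On that basis bHLH39 was at least 1.17-fold lower at 3 h than at 0 h in the wild type, where 1 of the 2 arrays at 0 h was well above background. In 35S::RDM4 plants bHLH39 was at least 1.35-fold lower at 3 h. The limma test was of the fitted log2 differences, -2.13 and -0.91 (adjusted p = 2.08e-04 and 0.0203), and not of these bounds. The call in 35S::RDM4 plants was lost when either 3 h array or 0 h replicate 1 was left out, with adjusted p between 0.0527 and 0.103. From 3 h to 48 h bHLH39 rose at least 11.2-fold in 35S::RDM4 plants, where the limma test was of the fitted difference of 3.96 (adjusted p = 3.07e-06). These 3 h calls depended on how background was treated. With normexp correction the bHLH38 difference was 0.04 in the wild type and 0.28 in 35S::RDM4 plants (limma adjusted p = 0.891 and 0.264) and that of bHLH39 in 35S::RDM4 plants was -0.27 (limma adjusted p = 0.329), and with the deposited value table, which has no background subtracted, the calls of both genes were lost in both genotypes (limma adjusted p = 0.0759 to 0.506). The bHLH38 call in the wild type was also lost under quantile normalization (adjusted p = 0.0522), without 0 h replicate 2 (0.115) and without 3 h replicate 1 (0.134).

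bHLH100 differed from its 0 h level at 48 h and not, by the test, at 3 h. Its wild-type arrays read 0.835 and 0.831%, 0.834 and 0.724%, and 2.34 and 2.22%, and its 35S::RDM4 arrays read 0.851 and 0.861%, 1.07 and 0.911%, and 6.63 and 7.18%. The 3 h differences from 0 h, -0.10 ± 0.09 in the wild type and 0.20 ± 0.09 in 35S::RDM4 plants, did not pass the test (SE, n = 2 per group, limma adjusted p = 0.338 and 0.0664). bHLH101 dipped at 3 h: its wild-type arrays read 3.38 and 3.24%, 2.46 and 2.12%, and 4.18 and 4.11%, and its 35S::RDM4 arrays read 4.39 and 4.29%, 3.34 and 3.76%, and 9.50 and 9.64%. At every time both 35S::RDM4 arrays of bHLH101 were above both wild-type arrays. The dip was -0.53 ± 0.08 in the wild type (limma adjusted p = 3.02e-04) and -0.29 ± 0.08 in 35S::RDM4 plants (limma adjusted p = 0.00818), the latter lost without 35S::RDM4 3 h replicate 1 (adjusted p = 0.06) and with normexp correction (0.248).

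By 48 h in 35S::RDM4 plants bHLH38 rose 10.6-fold, bHLH100 8.06-fold and bHLH101 2.21-fold (limma adjusted p = 3.69e-08, 1.27e-08 and 1.54e-06). bHLH39 itself rose by 3.05 ± 0.29 (SE, n = 2 per group), or 8.31-fold (limma adjusted p = 1.37e-05). In the wild type the 48 h levels were 5.46-fold (bHLH38), 3.31-fold (bHLH39), 2.74-fold (bHLH100) and 1.25-fold (bHLH101) the 0 h levels, where the bHLH39 fold rests on a 0 h group with 1 array not well above background and its log2 value of 1.73 ranged from 0.74 to 2.19 over the other analyses.

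MYB10 and MYB72 are R2R3 MYB factors needed for growth on iron-poor alkaline soil, where they drive nicotianamine synthase genes. MYB10 read 7.43 and 7.50%, 7.23 and 6.91%, and 9.86 and 10.8% in the wild type, and 6.93 and 6.45%, 7.22 and 7.78%, and 17.8 and 16.4% in 35S::RDM4 plants. The 48 h arrays of each genotype stood well clear of its earlier arrays. The 0 h and 3 h arrays did not overlap either, with 3 h the lower in the wild type and the higher in 35S::RDM4 plants. MYB10 rose by 1.35 ± 0.07 (SE, n = 2 per group) at 48 h in 35S::RDM4 plants (limma adjusted p = 2.28e-07), and its 3 h differences, -0.08 in the wild type and 0.17 in 35S::RDM4 plants, did not pass the test (limma adjusted p = 0.317 and 0.0512). The latter passed with the mean of its 2 probes, the deposited value table and the filter on all 12 arrays (limma adjusted p = 0.0145, 0.0418 and 0.0422). MYB72 was well above background in 1 group, 35S::RDM4 at 48 h, where its arrays read 1.35 and 1.40%. All other arrays read 0.112 to 0.323%. The 48 h level in 35S::RDM4 plants was at least 2.24-fold the 0 h level, and the wild type has no fold. MYB72 passed the filter on low signals through that 1 group alone, where it is high, so its values are a description with no test, and it is left out of the counts at 48 h.

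Over the 10 genes, the calls against 0 h in 35S::RDM4 plants were 5 higher, 2 lower and 3 not called at 3 h, where limma called 70% of all genes. At 48 h all of the 9 genes other than MYB72 were higher, where it called 79.5%. Since most genes on the array were called at both times, the count by itself says little, and the sizes carry the description. The median log2 difference of the 9 at 48 h was 3.01, or 2.22 over all 10 with MYB72 at its bound, against 0.01 over all genes, of which 18.5% changed at least 2-fold. Of the 9, IRT2 alone changed less than 2-fold, at 1.75-fold. Within a scan day the 48 h change in 35S::RDM4 plants could be taken on the second day only, where IRT1 gave 5.07 and FRO2 4.46. From 3 h to 48 h in 35S::RDM4 plants 8 of these 9 rose and IRT2 did not pass the test (-0.06 ± 0.07, SE, n = 2 per group, limma adjusted p = 0.423), with 75.8% of all genes called.

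In the wild type 5 of 10 rose and 2 fell at 3 h, with 68.1% of all genes called. The genes that rose were IRT1, IRT2, FRO2, FIT and bHLH38 and the ones that fell were bHLH39 and bHLH101, and the same 7 were called in the same directions in 35S::RDM4 plants. With normexp correction bHLH38, bHLH39 and bHLH101 lost the call in 35S::RDM4 plants and FIT and bHLH38 in the wild type, and with the deposited value table IRT1, IRT2 and FRO2 were the 3 left in the wild type. Each of the 2 scan days held a single array of each of these groups, and the 0 h and 3 h arrays of all 7 did not overlap in either genotype. Their directions within a scan day were therefore fixed and are no further test. Within the days IRT1, for example, gave 1.83 and 1.85 in the wild type and 2.34 and 2.43 in 35S::RDM4 plants. The wild-type 48 h levels were taken to be known when the genes were chosen, so nothing is read from the calls there. The same threshold marked 10 of 10 as higher than at 0 h, beside 78.7% of all genes. Against 3 h it marked 9 as higher and IRT2 as lower, beside 76.1%. For MYB72 all wild-type groups were below background.

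**Figure D2:**
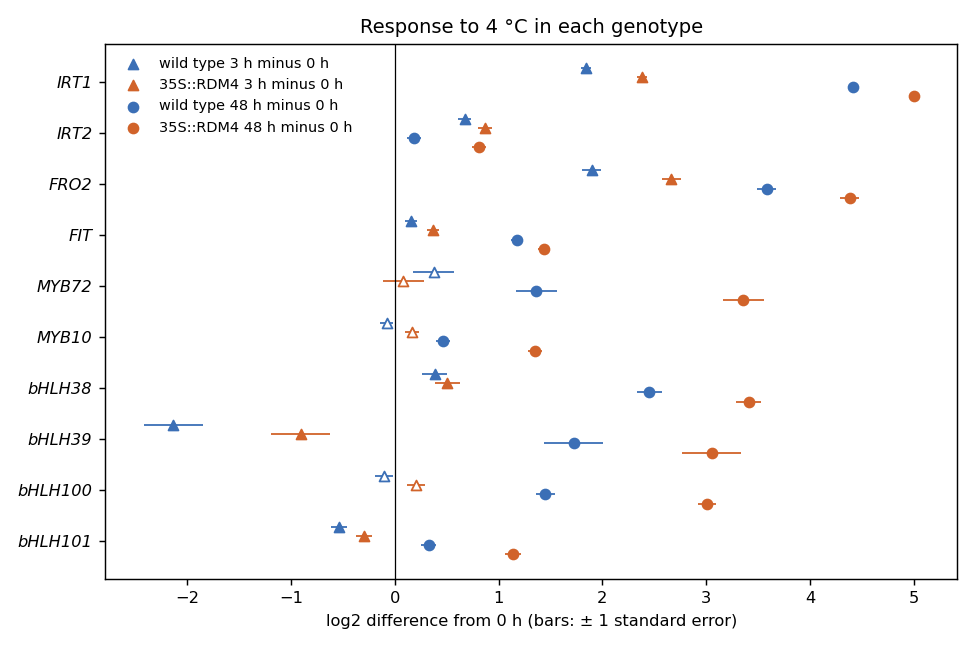
Fitted log2 difference from 0 h of each gene after 3 h (triangles) and 48 h (circles) at 4 °C in the wild type and 35S::RDM4 plants, with bars of 1 standard error and filled symbols where the adjusted p was below 0.05. IRT1 (4.999) and FRO2 (4.38) lie furthest to the right in 35S::RDM4 plants at 48 h, and bHLH39 and bHLH101 lie left of 0 at 3 h. The wild-type 48 h values and those of MYB72 are a description, and fitted values of MYB72 and of bHLH39 at 3 h rest on signals not well above background.

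Before the cold the genotypes were close. At 0 h 1 of the 10 genes was higher in 35S::RDM4 plants and 1 was lower, while limma called 13% of all genes, so the share among the 10 is near the background. bHLH101 was higher by 0.39 ± 0.08 (SE, n = 2 per group, limma adjusted p = 0.0142) and IRT2 was lower by a log2 difference of -0.26 ± 0.07 (limma adjusted p = 0.0379). Both calls were lost in other analyses: IRT2 under median scaling (adjusted p = 0.0687) and quantile normalization (0.0639), bHLH101 with normexp background correction (0.464), and each of them when single 0 h arrays were left out (0.0548 to 0.192), IRT2 also without a wild-type cold array (0.0562 to 0.06). The 95% intervals of IRT1 (-0.06 to 0.16) and FRO2 (-0.23 to 0.19) lay below the genotype differences in the cold. They hold the spread between arrays and no slide effect, and no slide held both genotypes at 0 h. The wild-type 0 h arrays were also those of the comparison taken to be known. Of the 20 root markers 11 were lower in 35S::RDM4 plants at 0 h and none higher, with a median of -0.24, and their part in the 0 h values was not tested.

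After 3 h of cold IRT1, FRO2 and bHLH101 were higher in 35S::RDM4 plants, 3 of 10 where limma called 4.93% of all genes. The differences were 0.59 ± 0.05 for IRT1, 0.75 ± 0.09 for FRO2 and 0.63 ± 0.08 for bHLH101 (SE, n = 2 per group, limma adjusted p = 0.00326, 0.0115 and 0.0114). Within the first scan day they were 0.62, 0.70 and 0.44, and within the second 0.57, 0.81 and 0.82, with the genotypes on different slides on both days. bHLH39 missed the threshold at 1.23 ± 0.29 (limma adjusted p = 0.0508), with all 4 of its arrays not well above background, and bHLH100 at 0.34 ± 0.09 (limma adjusted p = 0.0619). FIT, at 0.15 ± 0.06 (limma adjusted p = 0.156), passed with the mean of its 2 probes (0.24, limma adjusted p = 0.0423). The FRO2 call was lost without either wild-type 3 h array or without 35S::RDM4 replicate 2 (adjusted p = 0.0545 to 0.094), and that of bHLH101 without 35S::RDM4 replicate 2 (0.0758) and with normexp correction (0.16). With only the 3 h arrays in the fit none of the 3 passed (0.0505 for IRT1, 0.06 for FRO2 and 0.114 for bHLH101). Of the root markers 1 of 20, TIP2;3, was higher at 3 h and none was lower, with a median of 0.07.

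After 48 h of cold 8 of the 9 genes other than MYB72 were higher in 35S::RDM4 plants and none was lower, where limma called 3.69% of all genes (534 higher and 234 lower). The median difference of the 9 was 0.78, or 0.91 over all 10 with MYB72 at its bound, against -0.01 over all genes. These arrays include the wild-type 48 h arrays that were taken to be known when the genes were chosen. On every one of the 10 genes both 35S::RDM4 arrays were above both wild-type arrays, although those of MYB72 in the wild type were not well above background. How many of all genes separate this way with 2 arrays per group was not counted. At 0 h the arrays of the genotypes were also apart for IRT2, FIT, MYB10, bHLH100 and bHLH101.

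All 4 Ib genes, MYB10 and the 3 uptake genes passed the test, and FIT did not. bHLH100 was 3.03-fold higher in 35S::RDM4 plants at 48 h (1.60 ± 0.09 on the log2 scale, SE, n = 2 per group, limma adjusted p = 5.7e-05), bHLH39 2.51-fold (1.33 ± 0.29, adjusted p = 0.0455), bHLH101 2.31-fold (1.21 ± 0.08, adjusted p = 1.14e-04) and bHLH38 2.13-fold (1.09 ± 0.12, adjusted p = 0.00201). MYB10 was 1.66-fold higher (limma adjusted p = 7.2e-04), and MYB72, as a description, at least 2.05-fold higher. Among the uptake genes FRO2 was 1.72-fold higher (0.78 ± 0.09, limma adjusted p = 0.00285), IRT1 1.56-fold (0.64 ± 0.05, limma adjusted p = 2.77e-04) and IRT2 1.29-fold (0.37 ± 0.07, limma adjusted p = 0.0216). FIT did not pass the test at 0.20 ± 0.06 (limma adjusted p = 0.115), with a 95% interval of 0.07 to 0.34, and it passed without 35S::RDM4 48 h replicate 1 (0.30, adjusted p = 0.00788).

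The 48 h calls of bHLH39 and bHLH38 depended on how background was treated: with normexp correction the adjusted p was 0.107 and 0.0925, and from the deposited value table it was 0.13 and 0.0894. The fitted log2 value of MYB72 went from 2.15 to 0.55 with normexp correction. The bHLH39 call was also lost without any single array other than the wild-type 0 h ones (adjusted p = 0.0527 to 0.183), and that of IRT2 without any single 48 h array (0.068 to 0.11). With only the 48 h arrays in the fit IRT2 (0.0744), FRO2 (0.095) and MYB10 (0.0554) did not pass. On the slide that held a 48 h array of both genotypes the differences were 0.68 for IRT1, 0.67 for FRO2, 0.39 for IRT2, 0.10 for FIT, 0.73 for MYB10, 1.04 for bHLH38, 1.46 for bHLH39, 1.58 for bHLH100 and 1.21 for bHLH101. With scan day as a block the same number, 9 with MYB72 counted, passed the threshold.

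Root markers stood level between the genotypes at this time. Of 20, 1 (RHD6, -0.28) was lower at 48 h in 35S::RDM4 plants, none was higher, and the median was 0.01. Of 8 leaf markers none was called in either direction (median -0.09), beside 3.69% of all genes.

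**Figure D3:**
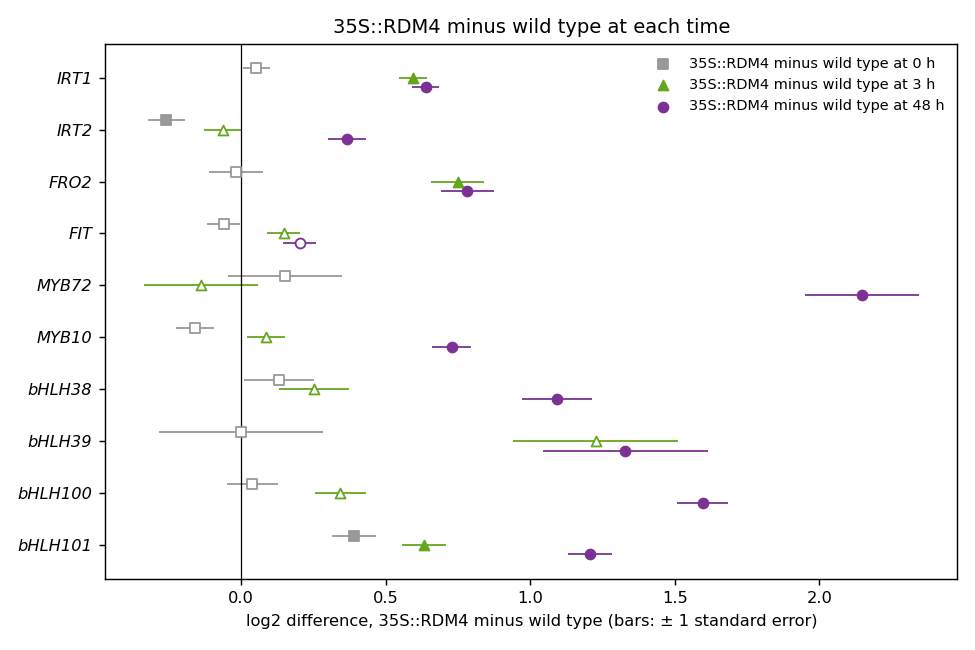
Fitted log2 difference between 35S::RDM4 plants and the wild type for each gene at 0 h (squares), 3 h (triangles) and 48 h (circles), with bars of 1 standard error and filled symbols where the adjusted p was below 0.05. At 48 h all symbols lie right of 0 and that of FIT alone is open, and at 3 h IRT1, FRO2 and bHLH101 are filled. MYB72 at 0 h and 3 h and bHLH39 at 3 h were not well above background in either genotype, and MYB72 at 48 h is a description.

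The change from 0 h was then compared between genotypes, with the wild-type 0 h arrays shared with the comparison taken to be known. At 3 h the change was larger in 35S::RDM4 plants for IRT1 by 0.54 ± 0.07 and for FRO2 by 0.77 ± 0.13 (SE, n = 2 per group, limma adjusted p = 0.00566 and 0.0156), 2 of 10 where 7.32% of all genes were called. FRO2 lost that call without any 1 of 4 arrays (adjusted p = 0.0526 to 0.0611). At the same time 9 of 20 root markers had a larger change in 35S::RDM4 plants, with a median of 0.30, close to the median of 0.24 over the 10 genes, and their part in these values was not tested.

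At 48 h the change was larger in 35S::RDM4 plants for 7 of the 9 genes other than MYB72, and the median over the 9 was 0.81. In this comparison limma called 5.46% of all genes, 948 more positive and 189 more negative in 35S::RDM4 plants. This comparison contains the wild-type change at 48 h, which was taken to be known for IRT1 and FRO2 when the genes were chosen. It also contains the 35S::RDM4 change, whose 0 h and 48 h arrays shared no slide. bHLH100 had the widest gap among genes well above background in all of these groups, at 1.56 ± 0.12 (SE, n = 2 per group, limma adjusted p = 3.21e-04), followed by bHLH38 at 0.96 ± 0.17 (limma adjusted p = 0.017) and MYB10 at 0.89 ± 0.09 (limma adjusted p = 0.00144). The gap was 0.81 ± 0.11 for bHLH101, 0.80 ± 0.13 for FRO2, 0.62 ± 0.09 for IRT2 and 0.59 ± 0.07 for IRT1 (limma adjusted p = 0.00455, 0.0117, 0.00756 and 0.00249). MYB72 is not tested here, with 3 of its 4 groups not well above background. FIT (0.26 ± 0.08, limma adjusted p = 0.122) and bHLH39 (1.33 ± 0.40, limma adjusted p = 0.115) were not called. With the mean of its 2 probes FIT was called at 48 h (0.32, limma adjusted p = 0.0387) and at 3 h (0.34, limma adjusted p = 0.0292). With normexp correction the calls of bHLH38 (adjusted p = 0.137) and bHLH101 (0.0624) were lost, and that of bHLH38 also without any 1 of 4 arrays (0.0541 to 0.0613). For IRT1 and FRO2 the gap at 48 h was close to that at 3 h, and for IRT2, bHLH38, bHLH100, bHLH101 and MYB10 the test was passed at 48 h and not at 3 h, where the difference between the times was not tested. Root markers gave 2 of 20 larger, with a median of 0.27.

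Other genes of iron metabolism were read through 7 lists drawn up from their known roles. Of 11 genes of root iron acquisition (proton pumping, coumarin secretion, metal transport), 9 rose and none fell in 35S::RDM4 plants at 48 h. In that comparison 79.5% of all genes were called, 8486 higher and 8054 lower, so the shares called in these lists lie near or below the share over all genes, and the sizes are the description. AT3G12900 was at least 74.6-fold higher, CYP82C4, a cytochrome P450 of coumarin synthesis, rose by 5.59, AT3G58060 by 3.21 and MTPA2 (also MTP3), a vacuolar zinc transporter, by 2.16 (limma adjusted p = 5.11e-07, 2.51e-06, 4.19e-07 and 3.49e-08). For AT3G12900 the p-value belongs to its fitted difference and not to the bound. Between genotypes at 48 h, where 3.69% of all genes were called, 3 of the 11 were higher, AT3G58060 by 0.94 ± 0.17, MTPA2 by 0.48 ± 0.08 and IREG2, a vacuolar metal transporter, by 0.33 ± 0.06 (SE, n = 2 per group, limma adjusted p = 0.0246, 0.0122 and 0.0303), and the list's median was 0.19.

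The list of upstream iron regulators, the bHLH proteins and ubiquitin ligases that act on the Ib genes among them, had 12 of 13 genes tested. In 35S::RDM4 plants at 48 h 6 rose and 4 fell, beside the 79.5% of all genes called, led by AT1G47400 (3.07), AT1G47395 (2.54), AT1G74770 (1.45) and bHLH121, an activator of the Ib genes, which fell (-1.11). Limma adjusted p-values of these 4 were 1.16e-08, 2.09e-09, 1.79e-07 and 2.39e-08. Between genotypes at 48 h, beside 3.69% of all genes, 4 were higher and none lower: AT1G47400 by 1.13 ± 0.09, AT1G47395 by 0.91 ± 0.05, AT1G74770 by 0.32 ± 0.07 and PYE, a bHLH repressor of iron genes, by 0.31 ± 0.04 (SE, n = 2 per group, limma adjusted p = 3.39e-04, 6.1e-05, 0.0416 and 0.00504). AT1G47400 and AT1G47395 were also higher at 0 h, by 0.37 and 0.50 (limma adjusted p = 0.0318 and 8.6e-04). The list's median at 48 h was -0.05. Of the 3 tested genes of subgroup IVa, bHLH proteins that act on FIT's stability, none differed between genotypes at 48 h, and NAI1 fell by 1.19 in 35S::RDM4 plants (limma adjusted p = 3.12e-08).

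Among 14 tested genes of iron transport within the plant, 9 rose and 3 fell in 35S::RDM4 plants at 48 h, beside 79.5% of all genes called. OPT3, which loads iron into the phloem, rose by 2.01, the nicotianamine synthases NAS2 and NAS4 rose by 1.89 and 1.73 and their relative NAS3 fell by 1.296 (limma adjusted p = 3.01e-08, 1.26e-08, 6.82e-09 and 3.69e-07). NAS2 and NAS4 were the 2 genes of this list that were higher in 35S::RDM4 plants than in the wild type at 48 h, where 3.69% of all genes were called. They were higher by 0.56 ± 0.05 and 0.32 ± 0.04 (SE, n = 2 per group, limma adjusted p = 0.00104 and 0.00609), with a list median of 0.09. Of 7 tested iron storage genes 5 fell and 1 rose in 35S::RDM4 plants at 48 h, beside the same share, with a list median of -0.78. At 3 h 3 of the 7 had risen and 2 had fallen, with a median of 0.20, where limma called 70% of all genes, so this count is near the background. The vacuolar transporter-like genes VTL5 and VTL1 fell by 1.66 and 1.31, the ferritin gene FER1 fell by 0.93 and FER3, another ferritin gene, rose by 0.87 (limma adjusted p = 1.79e-08, 4.99e-08, 1.87e-05 and 1.16e-05). None of the 7 storage genes differed between genotypes at 48 h by the limma test, beside the 3.69% of all genes called.

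The relatives of the uptake genes are given beside them. Of 6 tested FRO reductases other than FRO2, 4 fell and none rose in 35S::RDM4 plants at 48 h, beside 79.5% of all genes called, FRO3 by 1.37, FRO4 and FRO6 by 0.78 each and FRO7 by 0.66 (limma adjusted p = 1.98e-08, 7.01e-07, 1.16e-05 and 2.66e-04). FRO3, a mitochondrial reductase, was nonetheless higher in 35S::RDM4 plants than in the wild type at 48 h, by 0.43 ± 0.04 (SE, n = 2 per group, limma adjusted p = 0.00127). Of 9 tested ZIP transporters other than IRT1 and IRT2, 2 rose and 5 fell, again beside 79.5%, with ZIP9 at 1.17, ZIP11 at 0.38, ZIP5 at -0.33 and IRT3 at -0.82 (limma adjusted p = 5.66e-07, 3.75e-05, 4.77e-05 and 6.75e-07). None of the 9 differed between genotypes at 48 h by the limma test, which called 3.69% of all genes.

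**Figure D4:**
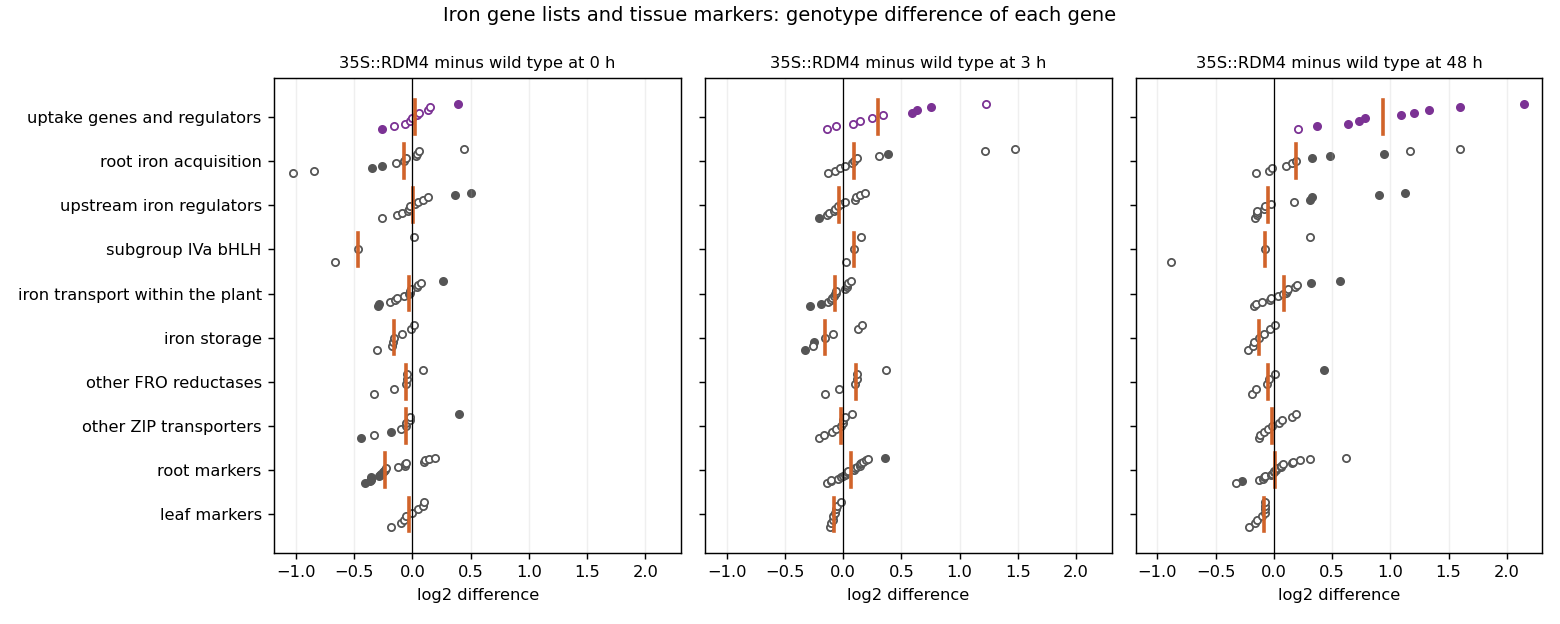
Log2 difference between 35S::RDM4 plants and the wild type of each tested gene in the 10 uptake genes and regulators, the 7 other iron lists and the root and leaf markers, at 0 h, 3 h and 48 h. Each point is 1 gene, filled where the adjusted p was below 0.05, and the vertical tick is the list's median. At 48 h the median of the uptake genes and regulators is 0.94 with MYB72 at its fitted value and 0.78 without it. The medians of the other lists lie between -0.13 and 0.19. MYB72 at 48 h is a description, with wild-type arrays not well above background.

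Likeness of pattern was measured as Pearson's r of log2 values over the 12 arrays, which share 6 groups, and is given as a description. The genes with a symbol most like IRT1 were MCM3 (0.997), NTM1 (0.996), MCM10 (0.996), MTHSC70-2 (0.996) and EMB3127 (0.995), and 2491 genes reached 0.9. Among the other 9 genes, FRO2 (0.99), FIT (0.96) and bHLH38 (0.94) were nearest to IRT1, and IRT2 (0.56), bHLH101 (0.58) and bHLH39 (0.65) were furthest. Most like bHLH38 were ORG1 (0.986), NRPB6A (0.985), ERF8 (0.985), PER4 (0.985) and POP1 (0.984), with 2741 genes at 0.9 or more. FIT (0.98) and bHLH100 (0.98) were nearest to bHLH38 within the set and IRT2 (0.34) was furthest.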

How the data were processed

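Each array was an Agilent one-colour Arabidopsis oligonucleotide array, Cy3-labelled from 150 ng of total RNA per the labels' protocols, and scanned with Agilent Feature Extraction 10.7.1.1 per the file headers. The deposited scanner files hold intensity values, of which the processed signal, background-subtracted and detrended within each array with no scaling between arrays, was used. A separate deposited table of intensity values, with no background subtracted, equals the median spot signal of the scanner files in 11 of 12 columns; the column of 35S::RDM4 48 h replicate 2 differs (1.46% of spots equal, relative tolerance 1e-05).

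Here log2 of the processed signal minus the array's 75th percentile was used. Of 43603 non-control probes, 34285 matched a locus through RefSeq accessions of the TAIR10.1 table. A probe was kept if well above background on both arrays of at least 1 group and never marked as an outlier (108 left out). Each of 20806 genes was read by its probe with the highest mean. IRT1, FIT and MYB10 have 2 probes, which agreed in direction in every called comparison. limma 3.58.1 (R 4.3.3) fitted 6 group means over 12 arrays (6 residual and 2.08 prior degrees of freedom) and p-values were adjusted by Benjamini-Hochberg over all genes of a comparison, with 0.05 as the threshold. The fit was also run on simulated data with independent noise and no slide or scan day effect, which is no test of the calls made here. No spot was saturated.

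The members and lists were chosen with earlier results of these data known. Named genes are all members, up to 4 called genes per list and described comparison with the largest absolute difference, and the 5 with a symbol most like IRT1 and bHLH38. Of the list genes AT2G30766, AT4G37850, FRD3, VIT1, FRO1, ZIP4, ZIP10 and ZIP12 had no kept probe. Replicate numbers do not pair arrays: over 15 pairs of groups, the replicate differences correlated at -0.05 to 0.29, and 4 were below 0. Alternatives were median and quantile scaling, normexp (median signal and background, offset 50), other filters, the deposited table, probe means, fewer arrays, blocks and other variance settings. The number of arrays limits the precision.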

Additional observations from a re-analysis of the deposited data

Results flagged for a closer look

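By the limma test of the difference itself, the change from 0 h differed between genotypes for 2 genes at 3 h and for 7 at 48 h besides MYB72. In each of them the change was larger in 35S::RDM4 plants. Over all genes 7.32% were called at 3 h, 986 more positive and 537 more negative in 35S::RDM4 plants. At 48 h 5.46% were called, 948 more positive and 189 more negative, so the calls over all genes leaned the same way. At 3 h the log2 gap was 0.54 for IRT1 and 0.77 for FRO2. At 48 h it was 0.59 for IRT1, 0.62 for IRT2, 0.80 for FRO2, 0.89 for MYB10, 0.96 for bHLH38, 1.56 for bHLH100 and 0.81 for bHLH101. MYB72 had a fitted gap of 1.99 at 48 h, which rests on signals not well above background in 3 of 4 groups and is no measured size; MYB72 passed the filter on low signals through 35S::RDM4 plants at 48 h alone. The MYB72 gap had an adjusted p of 0.0893 with trended and robust variances.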

How the results depend on the processing

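No member changed direction on a call under any alternative. The counts here include MYB72, for which they are a description. Counts of called members that moved most are these. At 0 h between genotypes, where 2 were called, 1 was called under median scaling, quantile normalization, no background filter and with only the arrays compared, and 0 with normexp correction and the deposited table. At 3 h between genotypes, where 3 were called, 0 were called with only the arrays compared and 5 with scan day as a block. Of 7 called at 3 h, normexp left 4 in 35S::RDM4 plants and the deposited table left 3 in the wild type. Of 8 called for the difference of responses at 48 h, both normexp and the deposited table left 5. Between genotypes at 48 h, where 9 were called, normexp, the deposited table and only the arrays compared gave 6 each. Leaving out 1 array gave 5 to 8 and 9 to 10 (wild type, 3 h and 48 h against 0 h), 10 to 10 (wild type, 48 h against 3 h), 7 to 8, 10 to 10 and 9 to 9 (35S::RDM4, same order), 0 to 2, 1 to 4 and 7 to 9 (genotypes at 0, 3 and 48 h) and 1 to 3 and 7 to 9 (difference of responses at 3 and 48 h). The lone array of a thinned group is assumed to vary like the others.

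With the replicate number as a block, 4 members were called between genotypes at 3 h, 3 for the difference of responses at 3 h and 9 at 48 h, and the other counts did not move; bHLH39 was the gene gained. Low signal limits MYB72, bHLH39, bHLH100 and bHLH38, whose values lie near background, and only 7 members pass a filter on all 12 arrays.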
